A study of Mus musculus with 8 samples.

Results

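The genes described here are Cd69 and 9 transcription factor genes that T cells switch on or adjust when their antigen receptor is engaged: Irf4, Irf8, Batf, Batf3, Bhlhe40, Nfil3, Prdm1, Tox and Maf. They were taken by symbol from a table of 25230 genes, where all 10 were found and all 10 had enough counts to be tested. The samples were intraepithelial lymphocytes (IELs), lymphocytes lodged among the epithelial cells of the gut, from C57BL/6J mice, in 8 libraries. The mice of both groups received 35 µg of an anti-CD3 antibody, which triggers the T cell receptor complex, by intraperitoneal injection. For 4 libraries this was combined with PBS, and for 4 with exendin-4 (Ex4), a peptide that activates the receptor for GLP-1, dosed at 10 nmol/kg. IELs were collected 3 hours later by Percoll separation and sorting for the pan-leukocyte protein CD45. No group without anti-CD3 was analysed here, so the values describe activated cells with and without exendin-4 and do not measure how far anti-CD3 itself raised these genes. Sex and age are not given in the labels, and the CD45 gate takes in all leukocytes.

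CD69 is a lectin-like membrane protein that appears on lymphocytes soon after activation and binds the egress receptor S1PR1, which keeps the cell in its tissue. IRF4 and IRF8 bind DNA weakly alone and strongly with partners, among them the BATF proteins, which pair with JUN factors at composite sites. BHLHE40, NFIL3 and Blimp-1 (the product of Prdm1) act mainly as repressors, and Blimp-1 and BCL6 repress each other's genes. TOX shapes chromatin in T cells under persistent receptor stimulation, and c-MAF supports Il10 and other cytokine genes. Several of these genes also mark other leukocytes: Irf8 and Batf3 are needed by cross-presenting dendritic cells, and Irf4 and Prdm1 by plasma cells.

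Total gene counts per library ranged from 13386889 to 31843413. Levels are given as CPM (counts scaled to library size) after TMM scaling, which adjusts library sizes to a common composition. The T cell genes Cd3e and Cd3g, the coreceptor gene Cd8a and the IEL integrin gene Itgae were present in every library, at 581 to 1061, 1598 to 2501, 953 to 2074 and 226 to 418 CPM. Marker genes of other cells were also present. Summed over their lists, markers of plasma cells reached 678 to 2676 CPM, of B cells 131 to 483, of conventional dendritic cells 97.9 to 153, of macrophages and monocytes 83.8 to 221, and of epithelial cells 226 to 635. Jchain and Xbp1, at means of 715 and 676 CPM, made up most of the plasma cell sums. In a bulk sample, fewer cells of a type and less RNA per cell cannot be told apart.

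Promoter sequences are shown for Irf4, Nfil3 and Prdm1, 3 of the 6 members that were lowest in the first PBS library (PBS 1). The Pearson r of log2 CPM between them was 0.87 to 0.95 over the 8 libraries, and 0.16 to 0.70 without PBS 1. Each run is from RefSeq on GRCm38.p6 (the assembly also called mm10), reads 5′ to 3′ in the direction of transcription and ends at the base before the start of a protein-coding transcript in GENCODE M21. For Nfil3 and Prdm1 the RefSeq gene span begins further upstream, so their windows lie inside it and belong to an internal start. Irf4 is at chr13:30748983-30749225 (plus strand), Nfil3 at chr13:52981074-52981289 (minus strand) and Prdm1 at chr10:44458749-44458998 (minus strand). Capitals mark the cAMP response element core TGACG or its reverse complement.
Irf4 promoter: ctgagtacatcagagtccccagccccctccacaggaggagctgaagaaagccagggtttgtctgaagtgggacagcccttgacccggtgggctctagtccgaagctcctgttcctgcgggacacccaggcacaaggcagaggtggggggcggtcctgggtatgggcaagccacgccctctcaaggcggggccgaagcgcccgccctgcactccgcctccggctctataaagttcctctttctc
Nfil3 promoter: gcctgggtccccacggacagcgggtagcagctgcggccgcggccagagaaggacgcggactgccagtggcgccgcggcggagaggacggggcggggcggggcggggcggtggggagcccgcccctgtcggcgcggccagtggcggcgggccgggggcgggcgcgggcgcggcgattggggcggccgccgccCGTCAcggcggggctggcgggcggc
Prdm1 promoter: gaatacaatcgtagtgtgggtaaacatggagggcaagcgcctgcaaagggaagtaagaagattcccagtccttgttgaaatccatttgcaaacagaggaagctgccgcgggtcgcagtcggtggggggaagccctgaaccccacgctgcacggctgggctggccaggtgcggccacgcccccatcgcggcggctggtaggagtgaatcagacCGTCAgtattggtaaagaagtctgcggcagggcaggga

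Exendin-4 acts through a receptor that raises cAMP, which is why the CREB-type letters were searched. Promoter entries were found for 6 of the 10 members, in 7 windows of 250 bases before a start site. The core TGACG, on either strand, was in 3 of these windows, those of Batf, Nfil3 and Prdm1, beginning 98, 59 and 38 bases before the RefSeq start. The same letters were in 17.8% of all 32851 windows of that length. The full element TGACGTCA (1.55% of all windows), the AP-1 site TGACTCA (4.46%), the IRF-binding GAAA repeat (2.98%) and an NF-kappaB consensus (0.356%) were in 0 of the 7 windows, searched on both strands. The E-box CACGTG, the form bound by BHLHE40, was in the Batf3 window, against 6.02% of all windows. GENCODE M21 places the first base of that window in an exon of Batf3, and the match lies near that end. Whether the match itself is transcribed was not tested. The D-box forms bound by NFIL3, TTATGTAA and TTACGTAA, were in none of the members' windows and in 0.819% and 0.113% of all. The full element contains the core, so a match to it would count for both. A match is a description of the letters only.

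The comparison asked whether exendin-4 altered these genes in anti-CD3-activated IELs. None of the 10 passed the test: edgeR's quasi-likelihood test with Benjamini-Hochberg adjustment over 14691 genes gave adjusted p-values from 0.658 for Batf3 to 0.993 for Irf8. Across all genes that test called 0.0136%. At an unadjusted p under 0.05 there were also 0 members, where 7.61% of all genes passed, and 0 members had groups that did not overlap, against 4.95% of all genes. DESeq2 and limma-voom called 0 members as well. The 10 log2 fold changes had a median of 0.14, with 6 above 0 and 4 below. Over all genes tested the median was 0.02, and 52.9% were above 0. The median size of the members' changes, ignoring direction, was 0.18 against 0.21 for all genes. Beside this comparison, all 10 epithelial markers had log2 fold changes below 0 (median -0.64, 0 called). So had all 8 B cell markers (median -0.19, 0 called) and all 6 plasmacytoid dendritic cell markers (median -0.31, 0 called). Of the T cell and IEL markers, 8 were above 0 and 2 below (median 0.16, 0 called). The part of these cells in the members' values was not tested. The labels do not say whether a library is 1 mouse or a pool, so the p-values measure the spread between these libraries.

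**Figure D1:**
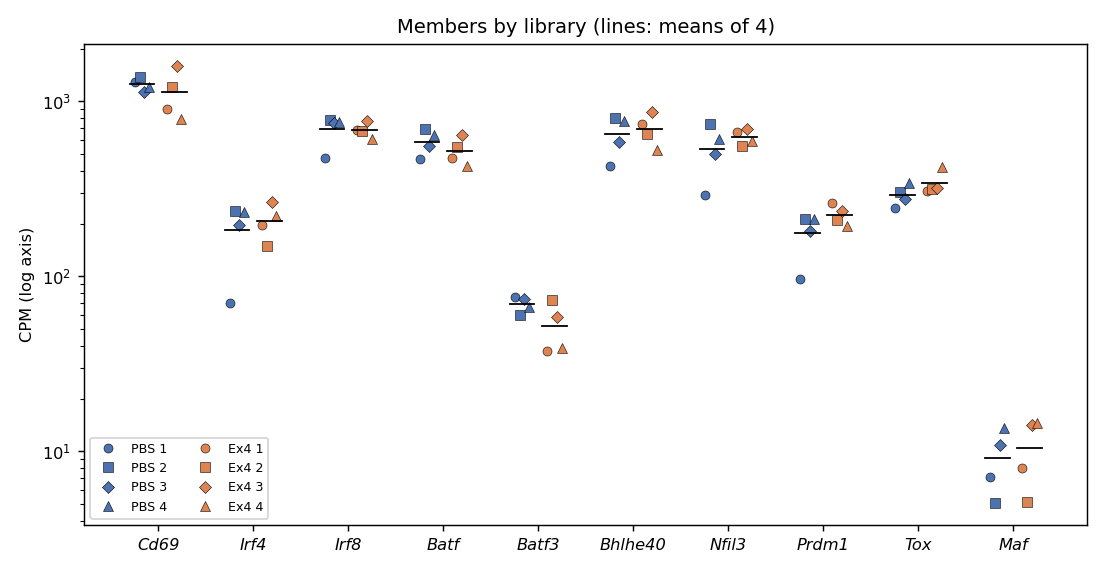
CPM (log axis) of the 10 members in each library, PBS in blue and exendin-4 in orange, with a line at each mean of 4 and 1 symbol shape per replicate number. The groups overlap for every member, and PBS 1 (blue circles) lies well below the other PBS libraries for Irf4, Irf8, Nfil3 and Prdm1.

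Cd69 (chromosome 6, 129267324 to 129275375) was the most abundant member by count, above 99.5% of all tested genes in CPM. It was at 1283, 1373, 1133 and 1198 CPM in PBS 1 to 4 and at 903, 1211, 1593 and 796 CPM in Ex4 1 to 4. The PBS libraries lay close together, whereas the exendin-4 libraries held both the highest value and the lowest values of the 8. The coefficient of variation was 8.36% among the PBS libraries and 31.8% among the exendin-4 libraries. The difference in spread was not tested. The log2 fold change was -0.15 (SE 0.19, 95% interval -0.56 to 0.26, edgeR adjusted p = 0.919), which corresponds to an interval of 0.680 to 1.2 in fold. Single libraries moved it from -0.38 (without Ex4 3) to -0.027 (without Ex4 4), and it was -0.070 without Ex4 1 and -0.23 without PBS 3.

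Of the IRF genes, Irf4 (chromosome 13, 30749233 to 30766981), whose level scales with the strength of receptor signalling in T cells, was at 70.4, 235, 197 and 234 CPM in PBS 1 to 4. In Ex4 1 to 4 it was at 195, 148, 267 and 219.8 CPM. PBS 1 was the lowest of the 8 libraries, at 0.317 of the mean of the other PBS libraries, and Irf4 had the widest range of the members, 3.79-fold from lowest to highest. That range was 1.80-fold without PBS 1. The log2 fold change was 0.17 (SE 0.34, 95% interval -0.60 to 0.94, edgeR adjusted p = 0.946) and turned to -0.11 without PBS 1. It was 0.012 without Ex4 3, and 0.30, 0.29 and 0.29 without PBS 2, PBS 4 or Ex4 2.

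Irf8 (chromosome 8, 120736358 to 120756694), best known for myeloid and dendritic cell development and also induced in activated T cells, was at 473, 784, 749 and 766 CPM with PBS. With exendin-4 it was at 689, 680.3, 771 and 610.2 CPM, all inside the range of the PBS libraries. The means were 693 ± 147 and 688 ± 66.0 CPM (SD, n = 4), and the log2 fold change was -0.010 (SE 0.16, 95% interval -0.36 to 0.34). Away from PBS 1 it was the steadiest member, with a range of 1.28-fold over the other 7 libraries. The defining dendritic cell genes Xcr1 and Clec9a averaged 13.9 and 1.92 CPM over the libraries, against a mean of 690.3 CPM for Irf8. Markers of B cells summed to 131 to 483 CPM per library, and those of plasmacytoid dendritic cells to 99.6 to 237 CPM. What part of the Irf8 counts came from any of these cells was not tested.

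Of the BATF genes, Batf (chromosome 12, 85686720 to 85709087), a factor that lacks an activation domain and works through its JUN and IRF partners, was at 469.5, 690.3, 552 and 638 CPM in PBS 1 to 4. The exendin-4 libraries were at 471, 546, 645 and 424 CPM. Its log2 fold change was -0.17 (SE 0.16, 95% interval -0.52 to 0.18, edgeR adjusted p = 0.865). The value was -0.31 when Ex4 3 was left out, -0.097 when Ex4 4 was, and -0.0996 without PBS 2 and -0.28 without PBS 1.

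Batf3 (chromosome 1, 191098414 to 191108943), the close relative of Batf required by cross-presenting dendritic cells and also expressed by activated T cells, had the smallest p of the members. It was at 76.4, 60.0, 73.7 and 67.1 CPM with PBS and at 37.6, 72.9, 58.6 and 38.8 CPM with exendin-4. Ex4 1 and Ex4 4 were far below every PBS library, Ex4 3 was just below them and Ex4 2 was among them. The means were 69.3 ± 7.31 and 52.0 ± 16.9 CPM (SD, n = 4). The log2 fold change was -0.41 (SE 0.20, 95% interval -0.83 to 0.006), with an unadjusted p of 0.0527 and an adjusted p of 0.658 in edgeR, at rank 1174 of the genes tested. It stayed below 0 in each of 18 alternative fits, from -0.64 without Ex4 2 to -0.30 without Ex4 1, and passed in none of them, with a smallest adjusted p of 0.400. The libraries low in Batf3, Ex4 1 and Ex4 4, were also lowest in Cd69. They had the lowest sums of plasma cell markers (729 and 678 CPM, against 1273 to 2676 elsewhere), mostly Jchain and Xbp1. They were also lowest in plasmacytoid dendritic cell markers (104 and 99.6 CPM, against 131 to 237), where Ccr9 had the highest mean, 48.3 CPM. Epithelial markers were likewise lowest in Ex4 1 and Ex4 4, at 226 and 329 CPM against 360 to 635. T cell and IEL markers, at 48567 and 51876 CPM, were inside the range of the others. Conventional dendritic cell markers summed to 129 and 114 CPM in Ex4 1 and Ex4 4, also inside that range, with Cd209a and Itgax the largest parts of the sum. Of the 9 genes in that list, 6 had log2 fold changes above 0 and 3 below (median 0.19). Among those below, Xcr1 was at 14.1 to 19.4 CPM in the PBS libraries and 12.7, 12.9, 9.97 and 7.78 CPM in Ex4 1 to 4. Its groups did not overlap (edgeR adjusted p = 0.473). Zbtb46, also below, was at 4.66 to 24.9 CPM with PBS and at 4.17, 7.71, 4.28 and 2.76 CPM in Ex4 1 to 4. Its log2 fold change was -1.32 (edgeR adjusted p = 0.525). Clec9a, the remaining gene below 0, was lowest in Ex4 4, at 0.92 CPM. Cadm1 was highest in that library, at 2.19 CPM. The part of these cells in the Batf3 values was not tested.

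Of the repressors, Bhlhe40 (chromosome 6, 108660629 to 108666925), which restrains Il10 and supports cytokine production in T cells, was at 425, 806, 588 and 775 CPM in PBS 1 to 4. In Ex4 1 to 4 it was at 743, 646, 863 and 527 CPM. Its log2 fold change of 0.10 (SE 0.20, 95% interval -0.33 to 0.53) turned to -0.068 without PBS 1 and to -0.039 without Ex4 3.

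Nfil3 (chromosome 13, 52967209 to 52982878), a bZIP repressor needed for innate lymphoid and natural killer cell development and active in T cell cytokine control, was at 293, 740.5, 498 and 609 CPM with PBS. The exendin-4 libraries were at 670.0, 558, 697 and 589 CPM, all above the PBS mean of 535 and all within the PBS range. The log2 fold change was 0.23 (SE 0.22, 95% interval -0.25 to 0.71, edgeR adjusted p = 0.868), and 0.019 without PBS 1 and 0.42 without PBS 2.

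Prdm1 (chromosome 10, 44437174 to 44528558) was at 96.2, 214, 182 and 213 CPM with PBS and at 261, 210.0, 237 and 193 CPM with exendin-4. It had the largest positive log2 fold change of the members, 0.35 (SE 0.21, 95% interval -0.10 to 0.81, edgeR adjusted p = 0.744). The means were 176 ± 55.5 and 225 ± 29.6 CPM (SD, n = 4). PBS 1 was at 0.474 of the mean of the other PBS libraries, and without it the log2 fold change was 0.14.

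Tox (chromosome 4, 6686353 to 6991557) was at 246, 302, 278 and 342 CPM with PBS and at 307, 316, 317 and 419 CPM with exendin-4. The exendin-4 libraries were all above the PBS mean, 3 of them lay close together within the PBS range, and Ex4 4 was the highest of the 8. The log2 fold change was 0.22 (SE 0.15, 95% interval -0.09 to 0.53, edgeR adjusted p = 0.785), and 0.092 without Ex4 4.

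Maf (chromosome 8, 115703253 to 115706894) was the least abundant member, with 122 to 410 counts per library. It was at 7.12, 5.06, 10.9 and 13.6 CPM with PBS and at 7.98, 5.15, 14.1 and 14.4 CPM with exendin-4. Low and high libraries occurred in both groups, and the coefficients of variation were 41.7% and 44.2%. The log2 fold change was 0.18 (SE 0.37, 95% interval -0.61 to 0.98), and single libraries moved it from -0.036 (without PBS 2) to 0.41 (without PBS 4). It was also below 0 without Ex4 3 or without Ex4 4, at -0.024 in both fits. Antisense genes overlap Maf, Tox and Bhlhe40 over 440, 260 and 118 exon bases (5.34%, 3.42% and 2.51% of their exons). Whether reads were counted by strand is not given in the sources used here, so those bases are uncertain.

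**Figure D2:**
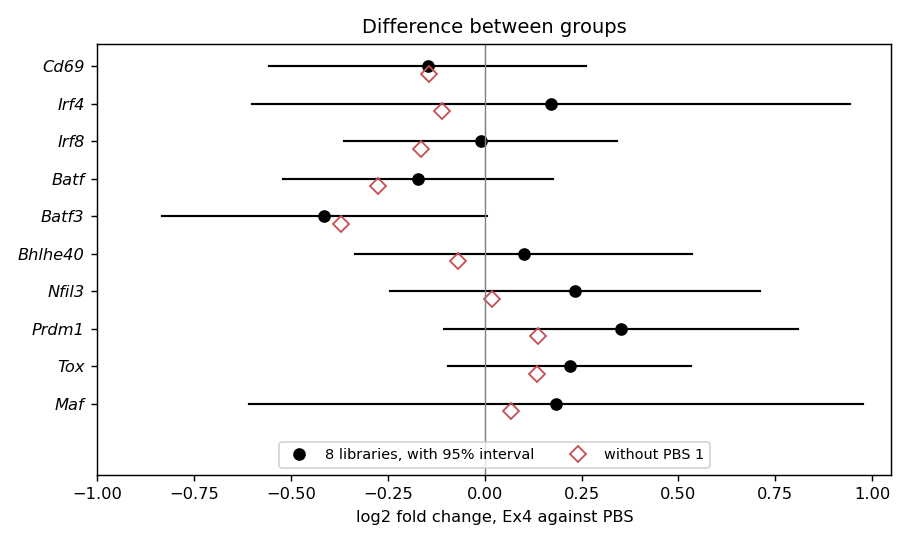
log2 fold change of exendin-4 against PBS for each member from the edgeR fit (black points with 95% intervals) and from the same fit without PBS 1 (open red diamonds). Every interval includes 0, and Irf4 and Bhlhe40 change side without PBS 1.

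The position of PBS 1 was shared by several members. It was the lowest of the 8 libraries for 6 of the 10, Irf4, Irf8, Bhlhe40, Nfil3, Prdm1 and Tox, where 17.6% of all tested genes were lowest there. For Irf4, Nfil3 and Prdm1 it was at 0.317, 0.476 and 0.474 of the mean of the other PBS libraries, and for Irf8 and Bhlhe40 at 0.618 and 0.587. Cd69 and Batf3 did not share this and were at 1.04 and 1.14 of that mean. In the same library the T cell and IEL markers summed to 37386 CPM, of which Gzma made up 30614, against 47773 to 54432 in the other PBS libraries. Its plasma cell markers were at 2023 CPM against 1273 to 1548, and its plasmacytoid dendritic cell markers at 237 against 131 to 162. B cell and epithelial markers were lower there, at 163 CPM against 226 to 483 and at 387 against 432 to 635. Conventional dendritic cell markers, at 106 CPM, lay among the other PBS libraries (97.9 to 145). Its macrophage and monocyte markers were at 221 CPM against 86.8 to 121, and its innate lymphoid and mast cell markers at 318 against 174 to 217. In the latter sum the single gene Kit was at 146 CPM, against 33.8 to 49.0 in the other PBS libraries. Of the 10 T cell and IEL markers, Cd3d (583 CPM), Cd3g (1598), Cd247 (188), Cd8b1 (20.7), Cd5 (0.19) and Gzma were lower in PBS 1 than in every other PBS library. Cd8a (2074 CPM) was higher than in every other one, and Cd3e, Itgae and Ptprc lay among them. The part of these differences in the members' values was not tested.

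Without PBS 1 the median log2 fold change of the members was -0.089, with 4 above 0 and 6 below, while that of all genes was 0.02. Without Ex4 3, the library with the most counts, it was -0.032, again with 4 above and 6 below. The number called stayed at 0 in both fits.

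**Figure D3:**
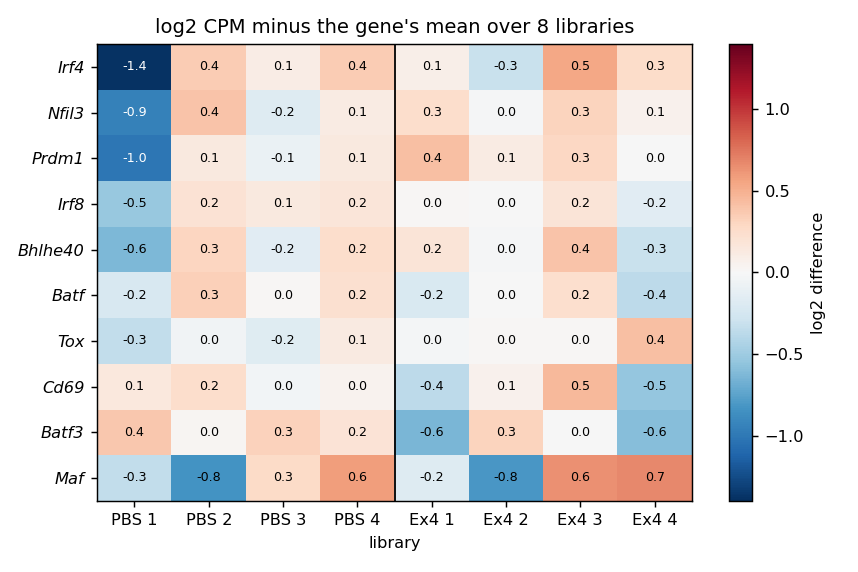
log2 CPM of each member (rows) in each library (columns) minus that gene's mean over the 8 libraries, with red above and blue below the mean. The Irf4, Nfil3 and Prdm1 rows are lowest in PBS 1, and the Cd69 and Batf3 rows are lowest in Ex4 1 and Ex4 4.

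The members fell into patterns across libraries, described by correlations of log2 CPM over the 8 libraries, which share scaling and cell composition. Of 45 pairs, 9 had a Pearson r over 0.8, led by Nfil3 with Prdm1 (r = 0.95, Spearman rho = 0.88). All 9 joined genes among Irf4, Irf8, Bhlhe40, Nfil3 and Prdm1. Without PBS 1 the r of Nfil3 with Prdm1 was 0.70, that of Irf4 with Nfil3 0.57 and that of Irf4 with Prdm1 0.16. The pairs over 0.8 in those 7 libraries numbered 3 and were others: Irf8 with Batf (0.93), Cd69 with Batf (0.92) and Cd69 with Irf8 (0.84). Batf3 went the opposite way to several members, with r of -0.63 for Tox and -0.50 for Prdm1, and -0.54 and -0.43 without PBS 1.

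Outside the members, the gene most like each was taken from 11172 candidates by Pearson r over the 8 libraries, as a description of the pattern only. For Cd69 it was Atp5pb, a subunit of mitochondrial ATP synthase (r = 0.98), and for Irf8 Apex1, a DNA repair endonuclease (0.99). Nfil3 was closest to Tinf2, a telomere shelterin subunit (0.99), and Prdm1 to Arid5b, a chromatin factor of lymphocytes (0.99). Irf4 was closest to Abhd11 (0.97), Batf to Cdc123 (0.97), Batf3 to Syce2 (0.98), Bhlhe40 to Setmar (0.96), Tox to Mrpl43 (0.95) and Maf to Ppp4r3a (0.98). Without PBS 1 these values ran from 0.89 for Prdm1 to 0.98 for Batf3. Each r is the highest of 11172 over only 8 libraries, and how high it would be for unrelated genes was not tested. Setmar was low, at a mean of 2.89 CPM and a minimum of 0.866 CPM.

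Per kilobase of exon, the levels of different members can be set side by side, though their order depends on the length taken. Batf was highest, at 394 ± 68.5 RPKM (SD over 8 libraries), followed by Nfil3 at 287 ± 69.3, Cd69 at 182 ± 38.8, Bhlhe40 at 143 ± 32.1 and Irf8 at 97.8 ± 14.97 RPKM. Cd69, first by count, came after Batf and Nfil3 on the exon-union length, 6.51 kb over 5 annotated transcripts against 1.41 kb for Batf. With the longest transcript it also came after them (4.97 kb against 0.955 kb for Batf). Shorter transcripts were not tried as the length, and which transcripts were expressed was not tested, so this place of Cd69 holds for these lengths only. Tox, Irf4, Batf3 and Prdm1 formed a group from 41.5 to 36.0 RPKM that did not differ beyond their spread (SDs from 6.66 to 12.6) on the exon-union length. With the longest transcript as length, Tox left that group, at 79.8 ± 12.8 RPKM against 41.1 ± 12.9 for Irf4 and 38.0 ± 9.23 for Prdm1. Tox exceeded Irf4 in 4 of 8 libraries, Irf4 exceeded Batf3 in 5 and Batf3 exceeded Prdm1 in 4. Maf was far below, at 1.19 ± 0.483 RPKM. Batf exceeded Nfil3 in all 8 libraries, and Nfil3 exceeded Cd69, and Cd69 Bhlhe40, in 7 each.

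**Figure D4:**
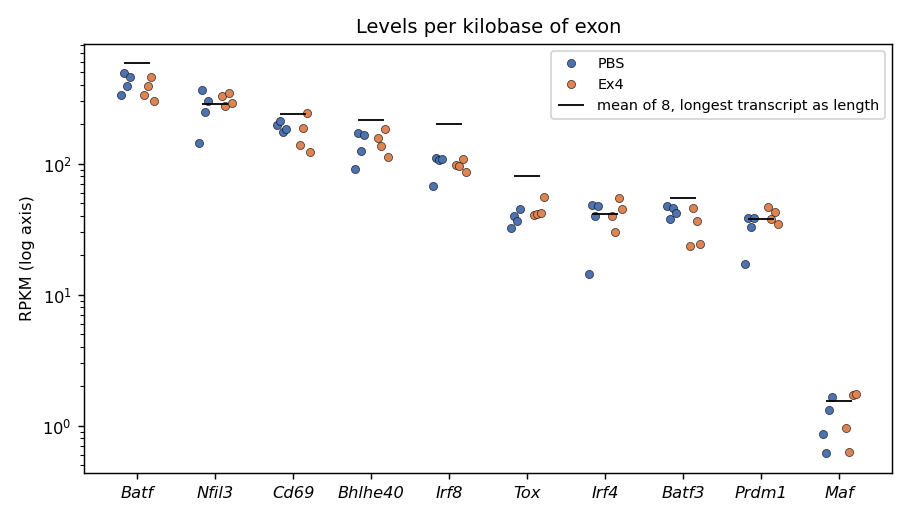
RPKM (log axis) of each member in the 8 libraries, PBS in blue and exendin-4 in orange, ordered by mean, with a dash at the mean over 8 libraries when the longest transcript is taken as the length. Batf and Nfil3 lead and Maf is lowest. The points of Tox, Irf4, Batf3 and Prdm1 lie together, while the dash of Tox (79.8) lies above those of Irf4 (41.1) and Prdm1 (38.0).

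Ratios within a library do not depend on how libraries are scaled. They were taken in CPM without correction for exon length, so their size is not a ratio of levels per kilobase. Irf8 exceeded Irf4 by 6.72, 3.33, 3.80 and 3.27 times in PBS 1 to 4 and by 3.53, 4.59, 2.89 and 2.78 times in Ex4 1 to 4. The mean log2 ratio was 2.03 ± 0.49 with PBS and 1.76 ± 0.33 with exendin-4 (SD, n = 4), a difference of -0.27 (exact two-sided permutation p = 0.486, adjusted 0.729 over 3 ratios). The highest ratio was that of PBS 1, and without that library the difference was -0.035. Batf3 stood at 0.163, 0.0870, 0.133 and 0.105 of Batf with PBS and at 0.0798, 0.133, 0.0909 and 0.0915 with exendin-4. That log2 difference was -0.29 (exact permutation p = 0.286, adjusted 0.729). It was -0.14 without PBS 1 and -0.44 without PBS 2 or without Ex4 2. Prdm1 exceeded its antagonist Bcl6 by 16.3, 13.9, 11.0 and 16.8 times with PBS and by 16.5, 17.2, 11.9 and 13.5 times with exendin-4, a log2 difference of 0.035 (exact permutation p = 0.8286, adjusted 0.8286). In this ratio PBS 1 lay among the other libraries, unlike in Prdm1 itself. The smallest p that 70 assignments allow is 0.0286.

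Related genes were examined in 8 lists with 111 tested genes, of which 0 passed the edgeR test, 11 had an unadjusted p under 0.05 (7.61% of all genes did) and 2, Stat5a and Il22, had groups that did not overlap (4.95% of all genes). Their median log2 fold change was 0.07, beside 0.02 for all genes, of which 52.9% were above 0. DESeq2 called 75 genes in the whole table.

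Among 14 relatives and partners of the IRF factors, 7 were above 0 and 7 below (median 0.03). Ikzf3, the Aiolos gene, averaged 368 ± 134 CPM in the PBS libraries and 527 ± 72.8 CPM in the exendin-4 libraries (log2 fold change 0.52, edgeR adjusted p = 0.654), with 187 CPM in PBS 1. Ikzf1 had a log2 fold change of 0.28 and Irf2bp2, a corepressor gene, of -0.46. Of 10 AP-1 genes that can pair with or replace BATF, 6 were above 0 and 4 below (median 0.06). Junb, the main JUN partner of BATF in T cells, was at 638, 1109, 921 and 1513 CPM with PBS and at 1929, 1056, 1468 and 1176 CPM with exendin-4 (0.43, edgeR adjusted p = 0.731). Fos and Atf3 had log2 fold changes of -0.26 and -0.22.

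Close relatives of Bhlhe40, Nfil3, Tox and Maf split 7 above and 7 below 0 (median 0.002). Bhlhe41, the paralogue of Bhlhe40, was at 71.6 CPM in PBS 1 against 1.24 to 14.9 in the other PBS libraries and 2.52 to 16.1 with exendin-4. It was thus highest in the library where Bhlhe40 was lowest. Its log2 fold change was -1.77 (SE 1.2, edgeR adjusted p = 0.802). Tox2 was at 4.94 ± 2.41 and 9.85 ± 5.43 CPM (0.99, edgeR adjusted p = 0.686), and Mafk, which encodes a small MAF protein, stood at 42.2 ± 4.49 and 51.2 ± 6.37 CPM (0.28).

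Factors opposed to the members, such as those of quiescent and memory cells, had 9 above 0 and 3 below (median 0.26). Bach2, a repressor that competes with AP-1 factors, was at 12.0 ± 4.90 and 17.9 ± 3.68 CPM (0.57, edgeR adjusted p = 0.658), and Myb at 3.505 ± 1.57 and 6.59 ± 2.37 CPM (0.91). Klf2, an activator of S1pr1, was at 15.4 ± 4.98 and 10.6 ± 1.66 CPM (-0.54, edgeR adjusted p = 0.656). The effector partner factors had 11 above and 5 below 0 (median 0.17). Stat5a, which carries signals of IL-2 family cytokines, was at 127 ± 14.8 and 101 ± 4.45 CPM (-0.33, edgeR adjusted p = 0.538), with every exendin-4 library below every PBS library. Runx3, a factor of CD8 lineage and tissue residence, had a log2 fold change of -0.45, and Rora of 1.46 (edgeR adjusted p = 0.351).

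Among 19 tested genes reported as targets of the members, 13 were above 0 and 6 below (median 0.18). Havcr2, which encodes TIM-3 and is promoted by NFIL3 and Blimp-1, was at 20.8, 70.2, 42.7 and 48.7 CPM with PBS and at 111, 62.6, 92.1 and 72.3 CPM with exendin-4 (0.89, SE 0.32, edgeR adjusted p = 0.543). Il22, a cytokine gene, was at 40.7 to 189 CPM with PBS and at 204 to 345 CPM with exendin-4, every exendin-4 library above every PBS library (1.32, edgeR adjusted p = 0.499). Ifng had a log2 fold change of -0.69 (edgeR adjusted p = 0.554). The egress genes linked to CD69 had 5 above and 7 below 0 (median -0.05). In that list Lgals1, which encodes galectin-1, was at 30.1 ± 6.04 and 48.2 ± 10.3 CPM (0.68, edgeR adjusted p = 0.367), and Slc3a2, the chain that CD69 is reported to associate with as part of an amino acid transporter, was at 335 ± 85.4 and 385 ± 24.0 CPM (0.20). The signalling genes upstream of the members had 7 above and 9 below 0 (median -0.04), with log2 fold changes of 0.74 for Lat and 0.36 for Plcg1.

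**Figure D5:**
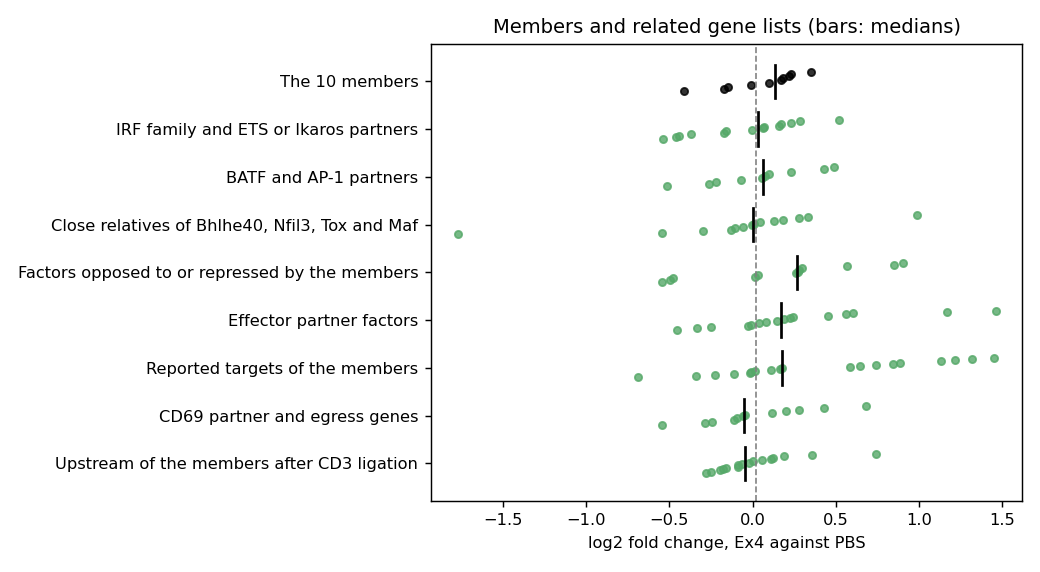
log2 fold change of exendin-4 against PBS for the 10 members (black) and the tested genes of the 8 related lists (green), 1 point per gene, with a bar at each list's median and a dashed line at the median of all genes tested, 0.02. The members lie between -0.41 and 0.35.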

How the data were processed

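mRNA libraries of sorted gut IELs were analysed, 8 in all and 4 per group, grouped and numbered by the labels, which state no batch or litter. The authors deposited whole-number gene counts, not normalised, and 0 per-sample columns were left unused. STAR 2.7.9a, DESeq2 and mm10 are named in the submitters' processing notes, without role or order. Which read counter and gene annotation were used is not given in the sources used here. With 13386889 to 31843413 counts per library, Maf (122 to 410 counts) is the least precise member.

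The test was edgeR 4.0.16 under R 4.3.3 (low-count filter by filterByExpr, TMM, robust quasi-likelihood F test, Benjamini-Hochberg over 14691 genes, threshold 0.05). SEs come from the fold change and its F statistic, and 95% intervals from the t distribution. The procedure was also run on simulated counts with changes larger than those of the members, so that run does not show how well changes of their size are found. Log2 CPM used a prior count of 2, and RPKM the union of GENCODE M21 exons. Alternatives were DESeq2 1.42.0, limma-voom (limma 3.58.1), other scalings and filters, omission of libraries, a replicate block and total counts as a covariate.

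The members and lists were chosen with earlier results of these data known. All 10 members are named, with the 3 genes of smallest p per related list and the most similar gene per member (mean log2 CPM of at least 1, no predicted genes, Rik clones or receptor segments). List genes absent from the table numbered 1, and 1 gene that this rule names is not reported here.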

Additional observations from a re-analysis of the deposited data

Results flagged for a closer look

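Among 4 libraries of a group, the distance of the most extreme value from its neighbour was divided by the range, for the members, the 3 ratios and the summed cell type markers. That ratio was above its 95% limit for 3 of 42 sets of 4, where chance passes about 1 in 20, or 2.1 of them. Irf4 was low in PBS 1, at 6.14 log2 CPM against 7.62 for its neighbour (ratio 0.852). Irf8 was low in the same library, at 8.89 against 9.55 (ratio 0.909). Tox was high in Ex4 4, at 8.71 against 8.31 (ratio 0.898).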

How the results depend on the processing

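The count of members called was 0 in each of 18 alternatives. Genes called over the whole table numbered 2, and 75 with DESeq2, 1 with limma-voom, 8 with no filter on low counts, 1 with the replicate block and 1 to 14 with a library left out (14 without PBS 2). Cd69, Batf, Batf3, Nfil3, Prdm1 and Tox kept their direction in every alternative. With a library left out, Irf4 ran from -0.11 (without PBS 1) to 0.30, Irf8 from -0.17 (-0.1655, without PBS 1) to 0.041, Bhlhe40 from -0.068 (without PBS 1) to 0.21 and Maf from -0.036 to 0.41. Irf8 was 0.013 with limma-voom and 0.0126 with the replicate block, and Maf was -0.22 without both PBS 2 and Ex4 3. The Prdm1 to Bcl6 log2 difference ran from -0.091 (without PBS 3) to 0.13 (without Ex4 3). The cause of these shifts was not tested. With the longest transcript as length, RPKM was 581 for Batf, 239 for Cd69, 216 for Bhlhe40, 199 for Irf8, 79.8 for Tox and 54.6 for Batf3, a change set by the shorter length, and Batf3 then stood above Irf4 and Tox apart from Irf4 and Prdm1.

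Same-numbered libraries were not paired by the labels, and the correlations of their deviations from the group means were 0.090, -0.027, -0.24 and 0.14. Only PBS 4 and Ex4 1 correlated best with the library of their own number in the other group.

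With 4 libraries a group, the intervals of the members allow changes of up to 1.2-fold for Cd69 and 1.97-fold for Maf upwards, and down to 0.561-fold for Batf3.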
